A study of Homo sapiens with 2 samples.

Results

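Cancer-testis antigen genes were examined in A427, an established human line of non-small cell lung carcinoma, some of whose cells attach to the plate while others float as spheres. The members were all gene symbols that start with MAGEA, MAGEB, MAGEC, GAGE, PAGE, XAGE, CT45A, CTAG, SSX or SPANX followed by a letter or digit, without SSX2IP. This gave 106 of the 23686 symbols, in 10 families. Adherent cells and floating, sphere-forming cells were collected apart, and 1 poly(A) RNA library was sequenced for each (26384670 reads assigned to genes in adherent and 27148842 in floating cells). Both came from A427 in the same medium with fetal bovine serum, no agent is named for either, and the growth form is the only stated difference. The labels give the genotype as WT, although the series title speaks of CTNNB1-mutated cells, and no label says whether the libraries came from separate cultures.

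Cancer-testis antigens are proteins made in male germ cells, and in part in placenta, that are silent in most other adult tissues and reappear in many tumours. In somatic cells their promoters are commonly shut by DNA methylation, and many of the genes lie on the X chromosome in groups of recent duplicates. Several of the proteins are targets of tumour vaccines and engineered T cells. Copies of a family can be almost the same in sequence, so the reads of one copy can be assigned to another, and sums over a family are given beside the single genes.

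Levels are given as TPM, which is scaled by transcript length and library and so can be compared between genes. Only a few of the families were transcribed in A427, and the sums of the abundant ones differed little between the growth forms. MAGEA and CT45A transcripts were abundant, whereas GAGE, XAGE, SSX and the CTAG1 and CTAG2 genes had from 0 to 2 reads per family. The SPANX family had 6 reads in adherent and 39 in floating cells. Of the 106 members, 66 had 0 reads in both libraries (62.3%, against 27.5% of all symbols). A further 21 had fewer than 10 reads, and 19 had at least 10 in one of the libraries. A count of 0 allows up to 3 reads, which is 0.114 CPM (reads scaled to library size) for adherent cells and 0.1102 CPM for floating cells.

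**Figure D1:**
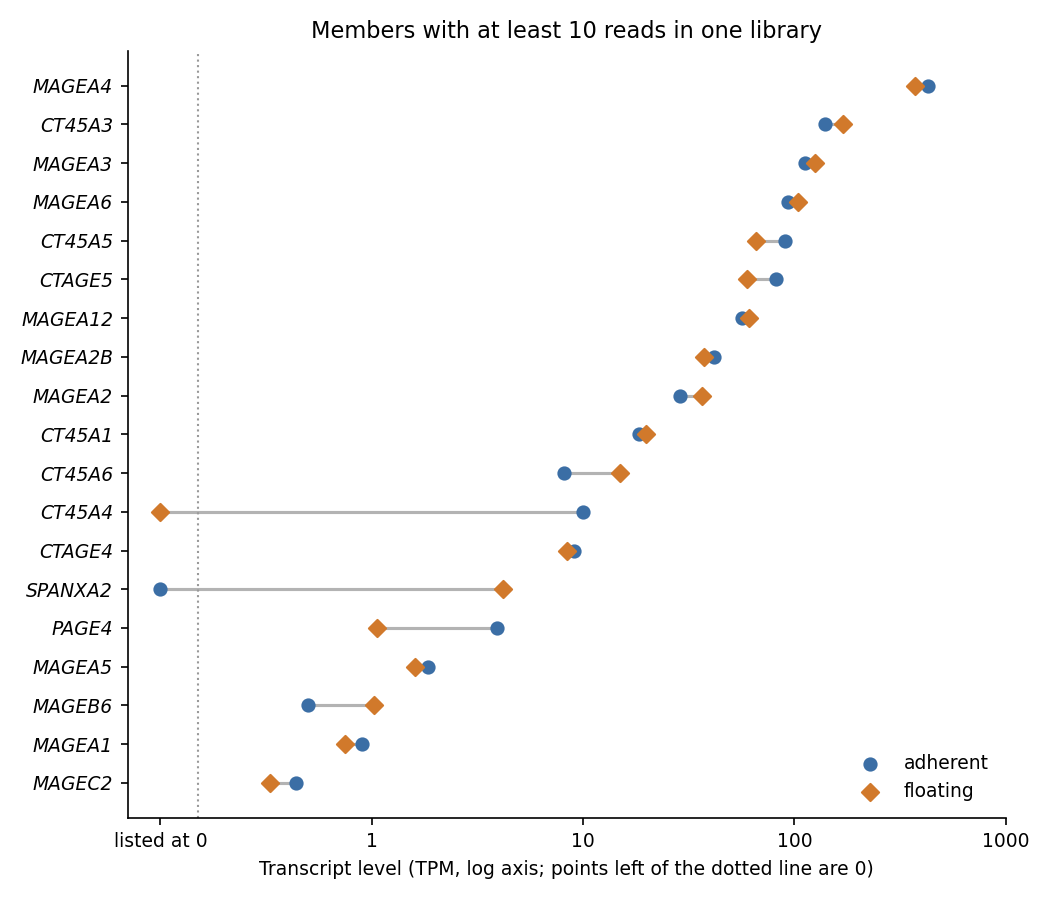
Transcript level (TPM, log axis) of the 19 members with at least 10 reads in one of the libraries, with circles for the adherent and diamonds for the floating library (1 library each). MAGEA4 is at the top at 427.3 and 373 TPM, and the 2 members that are listed at 0 in one of the libraries, CT45A4 and SPANXA2, are drawn at the left edge.

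The label was checked against the data. Of 10 male germ cell markers, 8 had 0 reads in both libraries, SYCP3 had 2 in each and ACRV1 had 1 in floating cells, with a summed level of 0.18 and 0.26 TPM. Summed levels in adherent and floating cells were 3.01 and 2.01 TPM for leukocyte markers, 0.13 and 0.42 TPM for endothelial markers and 0.94 and 0.72 TPM for fibroblast markers. PTPRC made up most of the leukocyte sum, at 2.84 and 1.95 TPM. The endothelial marker VWF had 14 and 44 reads (log2 ratio 1.57, interval 0.71 to 2.59). It was higher in floating cells by the 2-fold rule given below. Of the epithelial markers, EPCAM (615 and 582 TPM), KRT8 and KRT18 were abundant and CDH1 was at 18.9 and 13.9 TPM, but KRT7 had 4 and 3 reads and KRT19 had 8 and 22. The lung markers SFTPC and SCGB1A1 were at 0, and SFTPB had 0 and 1 reads. NKX2-1 had 3 and 13 reads, NAPSA 29 and 21, and TP63 4 and 0. KRT8 stood at 327 and 581 TPM and KRT18 at 342 and 613 TPM in adherent and floating cells, a ratio under 2-fold for both. The prefix CTAG also takes 9 members besides the CTAG1 and CTAG2 genes. They are CTAGE genes, named for an antigen of cutaneous T cell lymphoma, and RefSeq places them on autosomes. CTAGE5 goes against the label, since it is MIA2 in RefSeq, a gene for a protein of cargo export from the endoplasmic reticulum. CTAGE genes are therefore given apart from CTAG1 and CTAG2.

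Floating and adherent cells were compared by the log2 ratio of reads scaled by the TMM method of edgeR. With 1 library per growth form there was no spread between cultures to test against, so no p-value is given. The 95% interval beside a ratio is an exact Clopper-Pearson interval for counting error only. In bulk RNA, fewer cells with a transcript and less RNA per cell cannot be told apart. Of the 13131 symbols with at least 1 CPM in one of the libraries, 1.28% were at least 2-fold higher in floating cells with an interval that excluded no difference, 0.754% were lower by the same rule, and 2.03% passed in either direction. Of the members, 14 reached 1 CPM. None was higher by this rule and 1, CT45A4, was lower. CT45A4 met the 1 CPM minimum only through the adherent library, in which it was high (3.8 CPM), so its call is given as a description. The median log2 ratio of the 14 was 0.03, also with CT45A4 at its bound, against -0.0048 for all compared symbols. Intervals lay above no difference for 6 and below it for 4 of the 14, where 25.5% and 25.6% of all compared symbols did so. All 14 had read estimates with decimals, a sign that reads were divided between genes or transcripts, compared with 9.41% of all compared symbols.

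**Figure D2:**
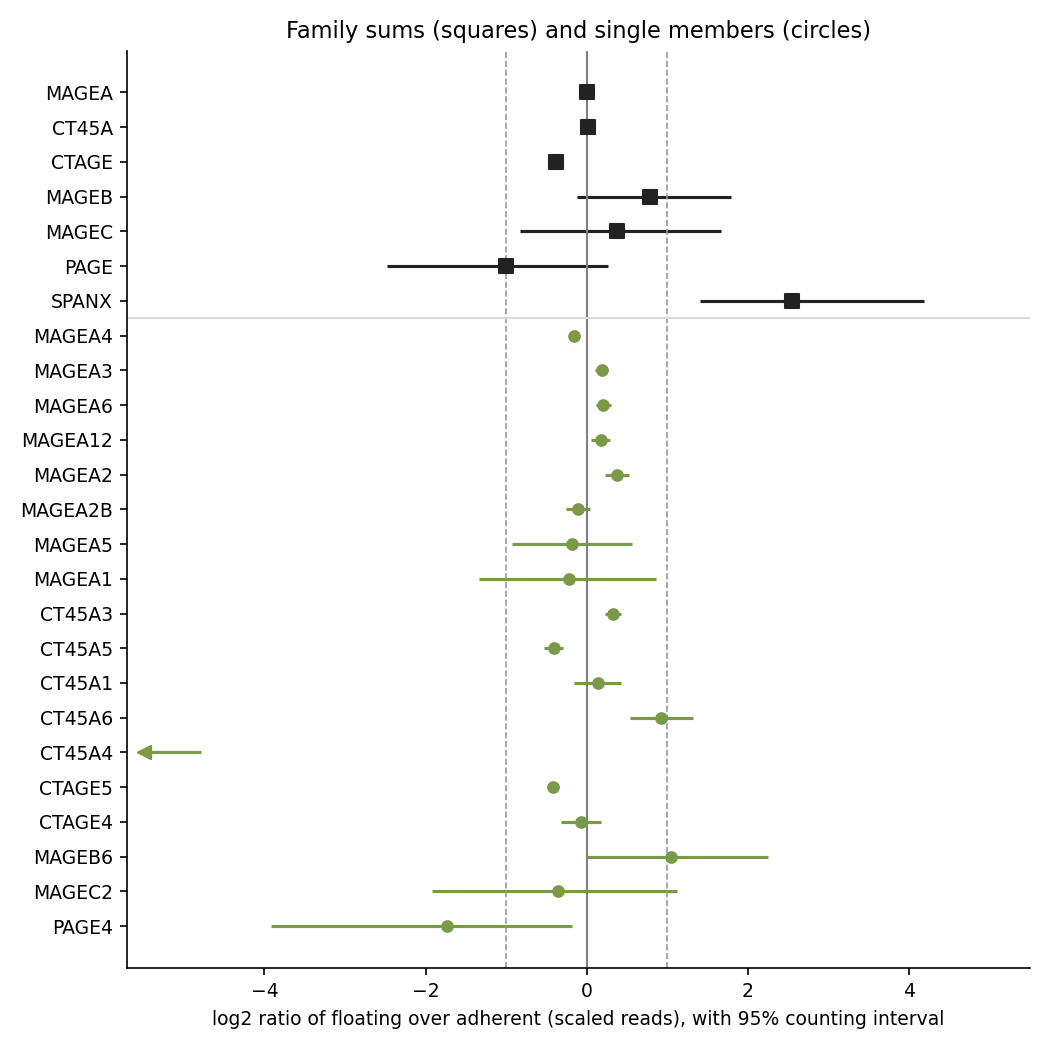
Log2 ratio of floating over adherent scaled reads, with 95% counting intervals, for family sums (black squares) and single members (green circles). Dashed lines mark 2-fold, MAGEA and CT45A sums sit on 0, SPANX lies to the right at 2.55, and the arrow for CT45A4 marks an interval with no lower end.

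MAGEA was the most abundant family. MAGE proteins bind RING ubiquitin ligases through a shared MAGE homology domain and change what these ligases act on. Summed over 14 symbols, MAGEA had 14526 reads in adherent and 15040 in floating cells, or 762 and 739 TPM. The summed log2 ratio was 0.0011 (interval -0.03 to 0.03), and -0.046 on TPM. Within this flat sum, MAGEA4 and the sum of the other MAGEA genes differed in opposite directions by small amounts.

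MAGEA4, the target of T cell receptor therapy in synovial sarcoma, held 56.1% of the family's reads in adherent and 50.4% in floating cells. Its level was 427.3 TPM in adherent cells, rank 320 of all symbols, and 373 TPM in floating cells, rank 387. The adherent library was 1.11-fold higher (interval 1.08 to 1.15). Of the 75-base windows of its longest GENCODE v29 transcript, 0.647% also occur in transcripts of another gene, so few of its reads could belong elsewhere. The other 13 MAGEA symbols together were 1.13-fold higher in floating cells (interval 1.09 to 1.17), with 6382 and 7465 reads.

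MAGEA3 and MAGEA6 both join with TRIM28 in a ubiquitin ligase that can degrade the kinase AMPK. In adherent and floating cells MAGEA3 was at 113 and 125 TPM, and MAGEA6 at 93.0 and 104 TPM. Of the 75-base windows of MAGEA6, 42.0% are shared. Their summed reads, 3903 and 4623, were 1.14-fold higher in floating cells (interval 1.10 to 1.20).

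MAGEA2 and MAGEA2B cannot be told apart by most reads, since 99.1% of the windows of MAGEA2 and 100% of those of MAGEA2B are shared. MAGEA2 was at 28.8 and 36.4 TPM and MAGEA2B at 41.5 and 37.5 TPM in adherent and floating cells, which gave single-gene ratios of opposite sign (log2 0.38 and -0.10). Their sum had 1375 and 1569 reads, a log2 ratio of 0.14 (interval 0.04 to 0.25). MAGEA12, with 0.178% of windows shared, gives a value that depends little on copies. Its levels were 56.2 and 61.0 TPM, 1.13-fold higher in floating cells (interval 1.04 to 1.23).

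The remaining MAGEA genes were low or silent. MAGEA5, a pseudogene in RefSeq, had 33.8 and 31.4 estimated reads, and MAGEA1, the first tumour antigen of this kind to be cloned with T cells, had 17 and 15. Both intervals included no difference (log2 -0.93 to 0.56 and -1.33 to 0.86). MAGEA9 had 1 read in adherent cells. MAGEA8, MAGEA9B, MAGEA10, MAGEA11 and the read-through symbol MAGEA10-MAGEA5 had 0 reads in both libraries.

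Transcribed and silent members are shown by the sequence before their transcript start, because methylation of CG sites in such promoters is a known control of these genes. Methylation itself was not measured here. RefSeq gave such windows for 65 of the 106 members, on GRCh38.p14, which is not the hg19 build named for these data. The 250 bases before the first listed start are printed 5′ to 3′ on the strand of the gene, with CG dinucleotides in capitals. The first 3 and CT45A1 belong to transcribed genes, and MAGEA11 and GAGE12C had 0 reads.
MAGEA3, chrX:152698544-152698793, plus strand: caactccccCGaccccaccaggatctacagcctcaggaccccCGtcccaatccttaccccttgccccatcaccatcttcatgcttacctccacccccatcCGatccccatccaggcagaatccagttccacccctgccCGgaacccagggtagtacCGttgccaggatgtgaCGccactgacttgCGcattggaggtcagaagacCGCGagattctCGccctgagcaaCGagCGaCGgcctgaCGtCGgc
MAGEA2B, chrX:152714378-152714627, plus strand: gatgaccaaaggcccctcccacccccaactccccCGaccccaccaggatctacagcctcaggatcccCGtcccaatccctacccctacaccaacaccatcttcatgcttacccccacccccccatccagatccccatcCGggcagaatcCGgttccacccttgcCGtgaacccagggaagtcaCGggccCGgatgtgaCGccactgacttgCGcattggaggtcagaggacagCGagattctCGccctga
MAGEA12, chrX:152733507-152733756, plus strand: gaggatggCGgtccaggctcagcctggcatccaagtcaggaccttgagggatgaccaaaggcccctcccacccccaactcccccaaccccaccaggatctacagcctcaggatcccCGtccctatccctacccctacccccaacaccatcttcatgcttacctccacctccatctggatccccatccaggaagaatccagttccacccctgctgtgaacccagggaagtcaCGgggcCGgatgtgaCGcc
MAGEA11, chrX:149711810-149712059, plus strand: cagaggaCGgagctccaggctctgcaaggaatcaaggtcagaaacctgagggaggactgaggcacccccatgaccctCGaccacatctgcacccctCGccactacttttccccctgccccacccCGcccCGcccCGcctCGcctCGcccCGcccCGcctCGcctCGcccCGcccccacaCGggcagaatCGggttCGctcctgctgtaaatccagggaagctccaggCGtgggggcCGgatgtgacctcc
CT45A1, chrX:135713389-135713638, plus strand: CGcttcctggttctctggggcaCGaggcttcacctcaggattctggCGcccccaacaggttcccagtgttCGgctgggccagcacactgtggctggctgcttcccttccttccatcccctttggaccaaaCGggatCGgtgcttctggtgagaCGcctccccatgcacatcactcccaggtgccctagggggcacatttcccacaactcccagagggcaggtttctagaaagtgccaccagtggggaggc
GAGE12C, chrX:49531927-49532176, plus strand: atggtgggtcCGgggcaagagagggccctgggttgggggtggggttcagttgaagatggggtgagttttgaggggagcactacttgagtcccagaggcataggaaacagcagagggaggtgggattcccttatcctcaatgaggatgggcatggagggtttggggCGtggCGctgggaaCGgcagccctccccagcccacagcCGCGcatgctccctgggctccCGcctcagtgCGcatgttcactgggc

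The MAGEA6 window, on the opposite strand at chrX:152769690-152769939, is identical to that of MAGEA3 in all 250 bases, so the pair cannot be distinguished by it. In a global alignment the MAGEA3 and MAGEA2B windows were 73.4% identical, and MAGEA3 and CT45A1, of different families, 49.3%. MAGEA3 and MAGEA6 have 15 CG dinucleotides in the window, MAGEA2B has 11 and MAGEA12 has 5 (13 at its second listed start), while the silent MAGEA11 has 18 and GAGE12C 8. The median over all 35116 RefSeq windows was 11. On X, the median was 7 (4 to 15) in the windows of 11 members with at least 10 reads and 8 (1 to 18) in those of 51 members with fewer. The ranges of the 11 and the 51 overlapped. The letters CCGGAA, an ETS factor motif that holds a CG, were found on either strand in 3 of the 11 (MAGEA3, MAGEA6 and MAGEB6) and in 0 of the 51, against 14.5% of all windows. A second listed start of the silent MAGEB16 also has them, and the MAGEA3 and MAGEA6 windows count as the same sequence. Among the 51, many GAGE windows are identical to each other, as are those of MAGEA9 and MAGEA9B, so neither set holds only separate sequences. Of the 11, MAGEB6, MAGEC2, PAGE4 and SPANXA2 were below 1 CPM in both libraries. The GC box GGGCGG, the motif of SP1, which also holds a CG, was in 1 of the 11 and 10 of the 51, against 42.6% of all windows. MAGEA4 has it at 4 of its 5 listed starts but not at the first, the one counted here. The motif occurs 4 times in the window of the silent MAGEA11. These matches are descriptions of letters and not binding sites.

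CT45A was the other abundant family. CT45 proteins are nuclear proteins of germ cells. The 6 symbols summed to 3047 reads in adherent and 3183 in floating cells, or 266 and 270 TPM, with a log2 ratio of 0.01 (interval -0.06 to 0.09). Single copies differed far more than the sum. CT45A3 had 1399 reads in adherent and 1812 in floating cells (139 and 169 TPM), and CT45A5 had 1280.3 and 998 (90.2 and 66.0 TPM). The CT45A3 ratio was above and the CT45A5 ratio below no difference (log2 0.32, interval 0.22 to 0.43, and -0.41, interval -0.53 to -0.29). CT45A6 had 81.7 and 160.9 estimated reads, 1.89-fold more in floating cells (interval 1.45 to 2.51). CT45A4 had 99.96 estimated reads in adherent cells and 0 in floating cells, 34.5-fold lower with the floating library set at the limit of 3 reads, and the near end of its interval was 27.5-fold. CT45A1 had 185.6 and 212.4 estimated reads (log2 ratio interval -0.15 to 0.43), and CT45A2 had 0.

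The lower call of CT45A4 did not hold for sums of CT45A copies. With a minimum of 5 CPM in place of 1 CPM, CT45A4 was not compared and 0 members were called. Summed, CT45A3, CT45A4, CT45A5 and CT45A6 had 2861 and 2971 reads, a log2 ratio of 0.0054 (interval -0.07 to 0.08). In the GENCODE v29 transcripts, between 87.8% and 100% of the 75-base windows of the 5 CT45A members found there also occur in another gene, and single windows are shared by up to 9 other genes. CT45A4 is not among the symbols of that annotation, so which copies are nearest to it was not measured. CT45A3 took 45.9% of the family's reads in adherent and 56.9% in floating cells, and CT45A5 took 42.0% and 31.4%.

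**Figure D3:**
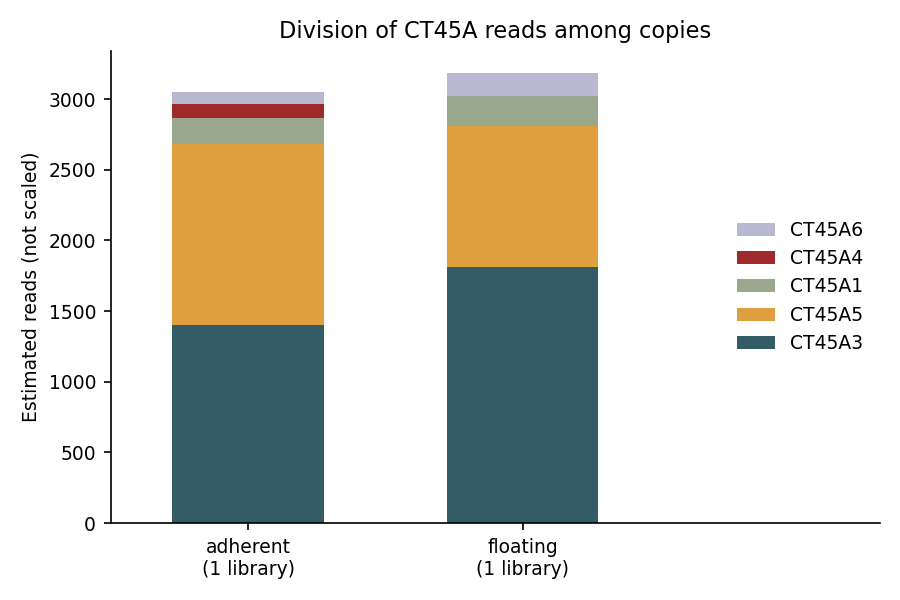
Estimated reads of CT45A (vertical axis, not scaled for library size) in the adherent and the floating library, stacked by copy. The bars are 3047 and 3183 reads high, and the division between CT45A3 and CT45A5 and the CT45A4 segment differ between them.

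SPANX genes, which encode small proteins of the spermatid nuclear envelope, were the family with the largest ratio. No single SPANX member reached 1 CPM, so none was compared. Summed over 14 symbols there were 6 reads in adherent and 39 in floating cells, or 1.97 and 12.5 TPM. The floating library was 5.87-fold higher (interval 2.64 to 18.2), with the sum at 0.228 CPM in adherent and 1.43 CPM in floating cells. The sum met the 1 CPM minimum only through the library in which it was high, so its passing the 2-fold rule is given as a description. These reads were spread over several symbols. SPANXA2 had 0 and 11.6 estimated reads. With the adherent library set at the limit of 3 reads, SPANXA2 was 3.87-fold higher in floating cells, and the near end of its interval was 2.69-fold. SPANXB1, SPANXB2 and SPANXF1 are listed at 1.33 reads each in adherent and 5.67 each in floating cells. RefSeq treats these symbols as a single gene, with 4 and 17 reads in sum (log2 ratio 1.91, interval 0.42 to 4.07). SPANXC had 1 and 2.78, SPANXE 1 and 3.61, SPANXN4 0 and 3 and SPANXN3 0 and 1 reads. Every one of these 8 symbols was higher in floating cells, though some share reads, so they are not separate observations. In GENCODE v29, all windows of SPANXA1 and SPANXA2 are shared. For SPANXB1 the share was 7.59%, but SPANXB2 and SPANXF1 were not among the symbols searched. The value therefore does not cover sharing with these symbols, whose equal estimates show that reads were divided evenly. Whether the difference in these few reads exceeds that between cultures could not be tested.

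MAGEB, MAGEC and PAGE were near the limit of detection. MAGEB summed to 16 and 29 reads (log2 ratio 0.79, interval -0.12 to 1.79). Within it MAGEB6 had 11 reads in adherent and 24 in floating cells (log2 interval -0.01 to 2.25), MAGEB18 had 5 in each, and 7 of 9 symbols had 0. MAGEC summed to 11 and 15 reads, with an interval from -0.82 to 1.67. MAGEC2, a partner of TRIM28, had 10 and 8 reads, MAGEC1 had 0 and 6, and MAGEC3 had 1 in each. PAGE summed to 16 and 8 reads, with an interval from -2.48 to 0.26. PAGE4, a disordered protein of prostate and placenta, had 14 reads in adherent and 4 in floating cells (log2 ratio -1.74, interval -3.92 to -0.19). PAGE4 was below 1 CPM in both libraries and not compared. PAGE1 had 1 and 4 reads and PAGE2 had 1 and 0.

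The GAGE, XAGE and SSX families and the CTAG1 and CTAG2 genes were silent or almost so. CTAG1A and CTAG1B, the copies of the gene for NY-ESO-1, and CTAG2 had 0 reads in both libraries. All 9 XAGE symbols had 0 reads. Of 22 GAGE symbols, GAGE2B had 1 read in floating cells and the other 21 had none. Some SSX genes fuse with SS18 in synovial sarcoma. Of 11 SSX symbols, SSX4 had 1 and 1.99 reads, SSX4B had 0.01 in floating cells and 9 had none. For GAGE a limit applies, since a median of 95.9% of windows in 13 symbols is shared with other genes and single windows occur in up to 11 of them. The same limit applies to CTAG1A and CTAG1B (86.8% and 86.4% shared) and to XAGE1A and XAGE1B (100% each). In 8 SSX symbols the median was 71.1%, with a range from 0.98% to 100%. The setting for reads that match many copies, not given in the sources used here, bears on this, and its part in the zeros was not tested. Some silent members do not share sequence in this way in GENCODE v29, with 0% of windows shared in XAGE3 and XAGE5. XAGE2 also had 0%, but the deposited symbols include XAGE2B, which RefSeq joins with XAGE2 and which the windows did not cover.

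CTAGE symbols summed to 3693 reads in adherent and 2925 in floating cells, 1.31-fold lower in floating cells (interval 1.24 to 1.37). CTAGE5 made up 92.2% of the adherent reads, at 82.1 and 59.4 TPM, and was 1.34-fold lower (interval 1.27 to 1.41). The other 8 CTAGE symbols summed to 288 and 287 reads, nearly all from CTAGE4, with an interval that included no difference (log2 -0.29 to 0.19). CTAGE5 thus made up most of the sum for the CTAG prefix.

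Several transcribed members lay side by side on the X chromosome, while MAGEA4, the most abundant, stood apart from the other abundant MAGEA genes between CNGA2 (0 reads) and GABRE, and CTAGE4 and CTAGE5 are on autosomes. RefSeq matched 96 of the 106 members to a gene by symbol or synonym, 87 on X and 9 elsewhere, and its order of genes is used without coordinates. The run from MAGEA3 to MAGEA6 holds, in order, MAGEA3, CSAG2, MAGEA2B, CSAG1, MAGEA12, CSAG4, MAGEA2, CSAG3 and MAGEA6. All 9 were transcribed in both libraries, from 3.01 TPM for CSAG4 to 160 TPM for CSAG1 in adherent cells. CSAG4 was outside the lists and was added after its value was seen. The 5 MAGEA genes of the run summed to 332 and 363 TPM, with reads 1.13-fold higher in floating cells (interval 1.10 to 1.17). The 4 CSAG genes, 3 of them cancer-testis genes and CSAG4 a transcribed pseudogene in RefSeq, summed to 255 and 267 TPM, with reads 1.07-fold higher (interval 1.00 to 1.15). Without CSAG4 the interval included no difference (1.066-fold higher, interval 0.995 to 1.14). In another stretch the members MAGEA9B, MAGEA11, MAGEA9 and MAGEA8 had 1 read in all. Among them lie TMEM185A, with 482 and 413 reads, and HSFX2 and HSFX1, with 13 and 15 reads in 1 library each. CT45A genes lie next to SAGE1, and GAGE, SSX and XAGE genes lie in stretches with at most 2 reads a gene.

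**Figure D4:**
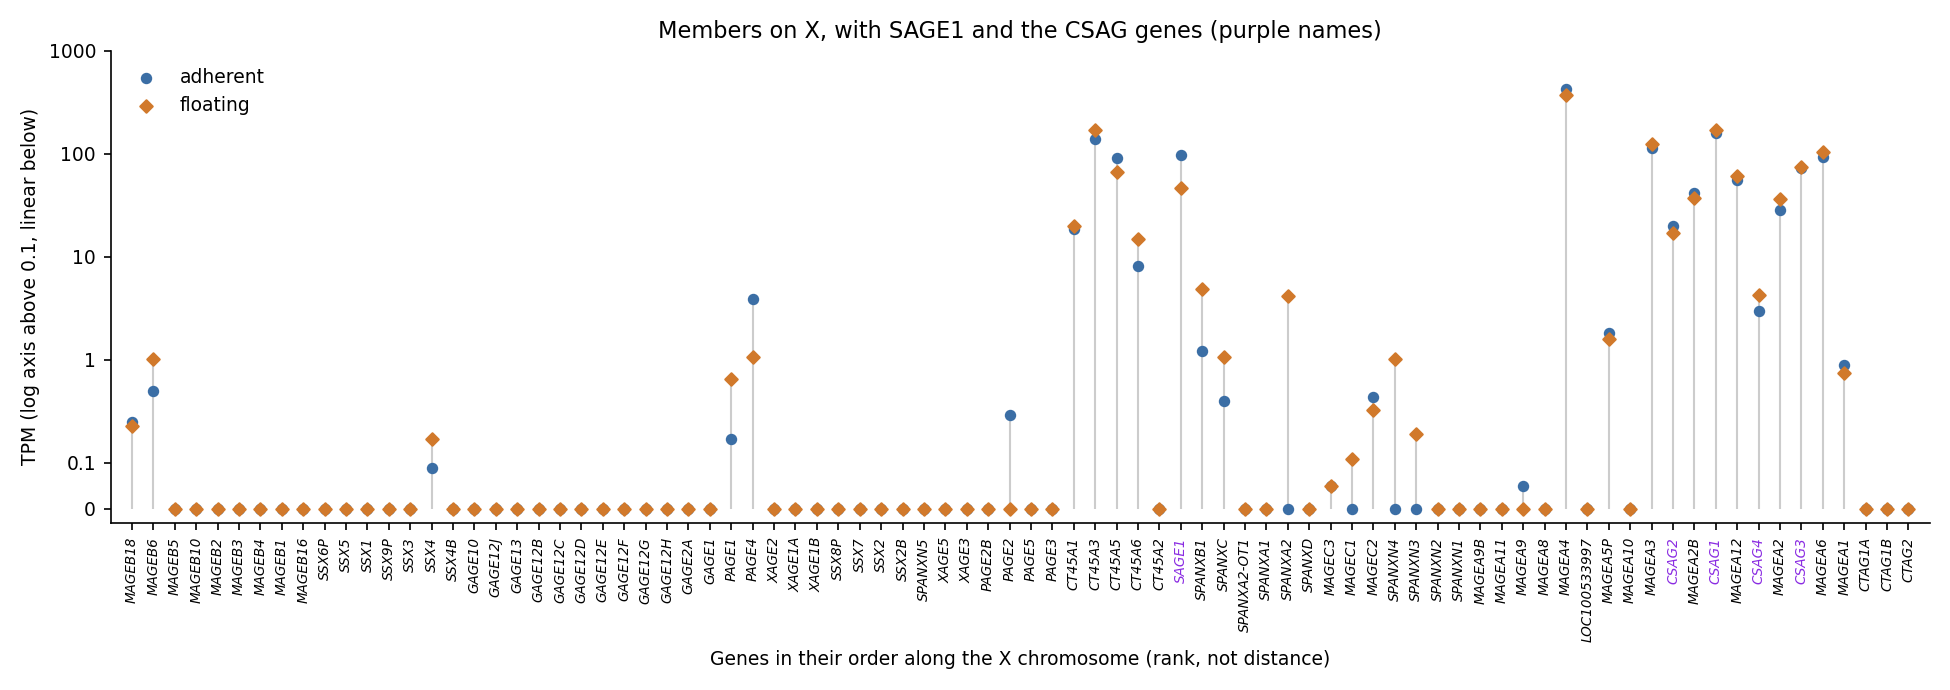
TPM (log axis above 0.1, linear below) of the members matched to X and of SAGE1 and the CSAG genes, in RefSeq order along the chromosome (rank, not distance), with circles for adherent and diamonds for floating cells. The MAGEA3 to MAGEA6 run stands above 1 TPM in both libraries, as do SAGE1, CT45A1, CT45A3, CT45A5 and CT45A6 but not CT45A2 (0 TPM). The GAGE, SSX and XAGE stretches lie at or near 0, and symbols that RefSeq joins (SPANXB1 with SPANXB2 and SPANXF1) are summed.

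Other cancer-testis genes outside these families held both transcribed and silent genes, as did all symbols. Of 69 in the table, 28 reached 1 CPM and 25 had 0 reads in both libraries. Of all 23686 symbols, 13131 reached 1 CPM in one of the libraries and 27.5% had 0 reads in both. The median log2 ratio of the 28 was 0.12. Among the 28, 0 were higher and 1 was lower by the 2-fold rule, against 1.28% and 0.754% of all compared symbols. That gene was SAGE1, sarcoma antigen 1, with 97.5 and 46.5 TPM, 2.03-fold lower (interval 1.92 to 2.15). CSAG1 was at 160 and 172 TPM, IGF2BP3, an oncofetal RNA-binding protein, at 129 and 117 TPM, and the mitotic kinase PBK at 104 and 115 TPM. The list also holds genes of dividing cells such as PBK, so it is not specific to the germ line.

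Type II MAGE genes share the MAGE domain but are expressed in many tissues. Of 12 in the table, 8 were compared, with a median log2 ratio of -0.22. By the 2-fold rule 0 were higher and 1 was lower, against 1.28% and 0.754% of all compared symbols, and 8 genes are too few to set against these shares. The lower gene was MAGED4B, at 1087 and 286.5 reads, 3.93-fold lower (interval 3.45 to 4.49). Its copy MAGED4 had 497.5 and 821.5 reads, and for the sum of both the floating library was 1.48-fold lower (interval 1.37 to 1.60). MAGEF1 (144 and 135 TPM), MAGED1 (104 and 78.2 TPM) and MAGED2 (87.1 and 66.2 TPM) had the highest levels of this list.

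Regulators and partners of these genes did not pass the 2-fold rule, which 2.03% of all compared symbols passed. Of 34 epigenetic regulators compared, 4 intervals lay above and 15 below no difference, where 25.5% and 25.6% of all compared symbols did so, and the median log2 ratio was -0.07. DNMT1, which maintains DNA methylation, had 121 and 110.5 TPM. The deacetylase HDAC1 was at 342 and 260 TPM, 1.27-fold lower in floating cells (interval 1.23 to 1.32), and the corepressor TRIM28, also a ligase partner of MAGE proteins, at 329 and 285 TPM. Of 7 MAGE partner ligases and related enzymes, none passed the rule (median 0.06), with NSMCE1 at 66.9 and 83.4 TPM and USP7 at 92.3 and 97.9 TPM. Of 18 antigen presentation genes, by which peptides of these antigens reach T cells, none passed it (median -0.03). The chaperone CALR stood at 3015 and 2710 TPM and the chaperone CANX at 959 and 812 TPM.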

How the data were processed

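Poly(A) RNA of adherent and of floating A427 cells was sequenced, 1 library each. Per the submitters' processing notes, FastQC 0.11.1, STAR 2.5.3a, RSEM 1.3.3 and the build hg19 were used, with annotation, settings and strand not given in the sources used here. Values for 23686 gene symbols were used as deposited, as estimated counts that the authors did not normalize and as TPM that the authors scaled within each library.

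Estimated counts, after summing where families are given, were rounded to whole reads and scaled by TMM in edgeR 4.0.16 (R 4.3.3). The ratio used a prior count of 0.5, and symbols of at least 1 CPM in one of the libraries were compared. A call needs 2-fold and a 95% exact interval that excludes no difference. Reads carry no molecular identifiers, so intervals and limits (3 reads for a count of 0) cover counting error only. edgeR's and DESeq2's tests need replicates and were not run. The call rule was tried on simulated reads with counting error only, without TMM, spread between cultures or division of reads among copies. It called 0 of 50 genes set 1.5-fold apart, 25 of 50 at 2-fold and 50 of 50 at 3-fold. Of 12877 unchanged genes it called 13. The simulation therefore does not cover errors from cultures or near-copies.

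Every member with at least 10 reads in one of the libraries was named, with others by family, and from related lists every called gene and the 3 of highest TPM, except 1 that is not reported here. Members and lists were chosen with earlier results of these data known. Near-copies were measured as the share of 75-base windows of the longest GENCODE v29 transcript, on the sense strand, found in another gene's transcripts, for 83 members. Promoter windows were from RefSeq (GRCh38.p14), aligned with Biopython 1.88. Other settings tried were scaling by library totals, by the upper quartile or by size factors of DESeq2 1.42.0, log2(TPM + 0.1), a prior count of 5, other CPM minima and folds, and no interval. Treating CTAGE symbols apart was added after the data were seen. Tables were handled in pandas 2.3.3 and intervals computed in scipy 1.17.1.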

Additional observations from a re-analysis of the deposited data

How the results depend on the processing

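No paired analysis was possible because each growth form had 1 library, and for the same reason no replicate could be left out. The count of 1 member past the 2-fold rule was the same under the 3 other scalings, TPM, a prior count of 5, a 4-fold threshold, no interval and without CTAGE symbols. It was 4 with no filter (CT45A4, PAGE4, SPANXA2 and MAGEC1), 0 with a minimum of 5 CPM and 2 with a 1.5-fold threshold, which added CT45A6. For all symbols the count was 267, and it was 450 with no filter, 105 with a minimum of 5 CPM, 807 at 1.5-fold and 40 at 4-fold. The summed log2 ratio of MAGEA was -0.046 on TPM and -0.01 with the upper quartile, so its sign depends on the scaling, and that of the CTAG prefix was -0.054 without CTAGE5. The SPANX sum ranged from 1.95 with a prior count of 5 to 2.61 on TPM. For CT45A4 a prior count of 5 gave -4.44. Of 95 recomputed ratios of named members, 94 stayed within their counting interval. With 1 library each, depth limits single members below about 27 reads.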

Other observations

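The gene on the other side of the CT45A group from SAGE1 had fewer reads in floating cells, just short of 2-fold. DDX26B, named INTS6L in RefSeq, lies just before CT45A1 in the order along X and had 1370 reads in adherent and 736 in floating cells, 1.93-fold lower (interval 1.76 to 2.11). SAGE1, just after the group, was 2.03-fold lower, while the summed CT45A genes between them had a log2 ratio of 0.01. MMGT1, which follows SAGE1, had 2038 and 2176 reads, 1.03-fold higher (interval 0.97 to 1.10). DDX26B and MMGT1 were chosen after their values were seen, for their place beside the group.

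Other near-copies on X beside the members were listed with reads in different copies in the 2 libraries. HSFX2 had 13 and 0 reads and HSFX1 0 and 15 in adherent and floating cells, both within the silent MAGEA9B to MAGEA8 stretch. FAM156A had 992 and 546 estimated reads and FAM156B 0 and 229. These genes were likewise chosen after their values were seen, and no test was made.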
